A study of Rattus norvegicus with 84 samples.

Results

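MicroRNAs (miRNAs) in extracellular vesicles (EVs) of the injured brain hemisphere were compared between control rats at 31 days and control rats at 4 days after stroke. The 6 libraries, 3 rats per time, were taken by their labels (brain, control, time after stroke). They are 6 of the 84 samples of the series and 6 of its 21 brain miRNA samples. The rats were wild-type male Sprague-Dawley rats aged 8 to 12 weeks at surgery (8 weeks in the study's supplementary methods), whose middle cerebral artery had been occluded for 90 min. Control rats received saline into the common carotid artery 3 days after the occlusion, so the early group was collected 1 day and the late group 28 days after that injection. Other groups used below are healthy rats, control rats at 10 days, and rats given human neural stem cells (hNSCs) by the same route on the same day and collected at 4 or 31 days, each with 3 rats. Every rat was sampled at a single time, so time after stroke and the greater age of the late rats cannot be told apart. The labels give no extraction or sequencing batch, and a batch that followed the time points cannot be told apart from them either.

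EVs are membrane-bound particles that cells release with proteins and RNA inside, and EVs isolated from brain tissue come from all its cell types. A miRNA pairs with messenger RNAs mainly through its seed, bases 2 to 8, and lowers their translation or stability, so miRNAs with the same seed share many targets. Many miRNAs are enriched in particular cells: miR-124 and the pair miR-132 and miR-212 in neurons, miR-219 and miR-338 in oligodendrocytes, miR-223 and miR-142 in blood-derived immune cells, and miR-204 in the choroid plexus. After a stroke the early days are a time of inflammation and cell death, and the later weeks are a time of scar formation and remodeling.

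The deposited table lists 5489 miRNAs, of which 699 are known rat miRNAs (names beginning with rno-, a prefix left out below) and the rest are predicted. The libraries at 4 days held 611298, 879059 and 673185 UMIs (molecular tags attached ahead of amplification, so that copies of a molecule count only once), and those at 31 days held 777760, 1034719 and 610131. Totals of the 21 brain libraries ranged from 321776 to 1711169 (median 663315), so the libraries compared lay within the range of the others. Known miRNAs took 94.0%, 95.1% and 93.8% of the UMIs at 4 days and 92.8%, 93.2% and 88.9% at 31 days. No UMI was found in any of the 6 libraries for 85 known miRNAs, and 350 passed the filter on low counts and were tested. Across these miRNAs, which are not independent, log2 levels of libraries of the same time correlated with Pearson r between 0.975 and 0.986, and those of different times with r between 0.929 and 0.955. The tissue label was checked by marker miRNAs. The 26 neuron-enriched miRNAs on the list, tested or not, added up to 104175, 120552 and 129942 CPM (UMIs scaled to a common library size with edgeR's TMM factors, the level used throughout) at 4 days and to 100519, 83577 and 127204 at 31 days. The most abundant on this list was miR-9a-5p, whose hairpin is also one of neural progenitors, so the sum is not particular to neurons. The neuronal miR-124-3p stood at 1805, 2805 and 2650 CPM at 4 days and 2374, 1997 and 2364 CPM at 31 days. Erythroid miRNAs added up to 51.4, 78.2 and 10.0 CPM and 37.9, 79.6 and 53.7 CPM, and liver miRNAs to 331, 308 and 337 CPM and 227, 124 and 139 CPM.

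Between 4 and 31 days on the TMM scale, the 9 members of the let-7 family, 4 of 6 tested choroid plexus miRNAs and miR-125b-5p rose, although let-7d-5p and miR-125b-5p turned slightly negative with predicted miRNAs kept. Of the tested miRNAs of immune cells 5 of 9 fell, of oligodendrocytes 3 of 4, and the activity-regulated pair miR-132-3p and miR-212-3p fell as well. On library-total TPM 0 let-7 members and 2 choroid plexus miRNAs were called, and with predicted miRNAs kept 0 of either. Without replicate 2 of 4 days or replicate 2 of 31 days 2 choroid plexus miRNAs were called, and without replicate 1 of 31 days 1 oligodendrocyte miRNA was. Of the 350 tested miRNAs, 56 were higher at 31 days (16%) and 45 were lower (12.9%) when an adjusted p in edgeR under 0.05 was required together with more than a 1.5-fold difference, and these are said below to have risen or fallen. The change exceeded 2-fold for 37 of the higher and 36 of the lower miRNAs, and 4-fold for 8 and 9 of them. All 3 libraries of 1 time lay beyond all 3 of the other for 55 of the 56 and for 44 of the 45. Over all tested miRNAs, the same held for 84 that were higher (24%) and 73 that were lower (20.9%) at 31 days. EVs were taken from a piece of the hemisphere as a bulk sample, so the part of tissue taken, fewer cells of a type, fewer EVs per cell and less of a miRNA per EV cannot be told apart.

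The number called in each direction differed between ways of processing the counts. The TMM factors were 1.12, 1.16 and 1.10 at 4 days and 0.805, 0.861 and 0.824 at 31 days, and the median log2 fold change over the 350 miRNAs was 0.04 on this scale. With DESeq2 size factors in edgeR, which change the scaling alone, 52 were higher and 48 lower. On the deposited TPM values, which divide by the library total, the median was −0.44, a shift of −0.48, and 24 miRNAs were higher and 107 lower in limma, where the test and the scaling both differ from edgeR with TMM. All of these 24 were among the 56 and all of the 45 were among the 107, and none of these calls changed direction. When predicted miRNAs were kept, in the normalization and among the miRNAs tested, the median of the known ones was −0.77, with 9 called higher and 86 called lower, and 6 of the 56 had a negative value. The 9 were let-7i-3p, miR-182, miR-183-5p, miR-296-5p, miR-375-3p, miR-653-5p, miR-770-3p, miR-770-5p and miR-1843b-3p, so the other rises named below were not called in that setting. A shift common to all miRNAs leaves differences between lists as they are, and the list medians on the TMM scale given below can be read against 0.04, the median of all tested miRNAs. The lists were chosen with earlier results of these data known, so their shares and medians describe the data and are no independent test.

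Of the 19 lists, the let-7 family made up the largest part of the EV miRNAs. Its members hold back proliferation and stemness genes in many tissues and accumulate as neural cells mature. As a share of the UMIs on known miRNAs, its 9 members took 31.9%, 27.8% and 30.9% at 4 days and 45.2%, 45.1% and 40.7% at 31 days. In the healthy group they took 36.4%, 43.0% and 34.3%, and at 10 days 30.8%, 32.8% and 30.9%, so the early and middle stroke libraries lay below every healthy library. Wilson 95% intervals of these let-7 shares extended by at most 0.173 points to either side, those of the shares of known miRNAs by at most 0.116, and such intervals and floors cover counting error only. The 9 members, including miR-98-5p, were all tested and all rose on the TMM scale (100%, against 16% of all tested miRNAs). Their log2 fold changes lay between 0.67 (let-7d-5p) and 1.06 (let-7b-5p), with a median of 0.90 against 0.04 for all tested miRNAs. On library-total TPM the 9 values were also positive (median 0.41) but 0 were called, and with predicted miRNAs in the normalization 8 of the 9 were positive (median 0.12, let-7d-5p −0.090). Relative to the median of all tested miRNAs, the family's median was 0.86 higher with TMM, 0.85 higher with library totals and 0.89 higher with predicted miRNAs kept.

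The most abundant member, let-7c-5p, stood at 79209, 63132 and 77483 CPM at 4 days and at 157589, 144444 and 139798 CPM at 31 days. The late libraries were all above the early ones, with a fold change of 2.01 (log2 1.01, standard error 0.17, adjusted p = 0.000142). Its level was 103743 ± 22803 CPM (SD, n = 3) in healthy rats and 81483 ± 11365 CPM (SD, n = 3) at 10 days, in between. For let-7a-5p, the levels were 73049.5, 63486 and 71954 CPM at 4 days and 149893, 139907 and 128543 CPM at 31 days, again without overlap (log2 fold change 1.00, standard error 0.15, adjusted p = 9.51e-05). The less abundant let-7i-5p rose by a log2 fold change of 0.98 (adjusted p = 0.000261) and let-7d-5p by 0.67 (adjusted p = 0.0033). Without replicate 2 of 31 days, let-7d-5p was no longer called (log2 fold change 0.53), nor was it with no filter on low counts. The members share the seed, shown here in capitals, and differ at few other bases, so they are not independent measurements.
let-7a-5p: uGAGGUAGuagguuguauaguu
let-7b-5p: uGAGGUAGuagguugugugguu
let-7c-5p: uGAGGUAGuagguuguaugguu
let-7d-5p: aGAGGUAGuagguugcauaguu
let-7e-5p: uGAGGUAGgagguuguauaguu
let-7f-5p: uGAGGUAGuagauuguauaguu
let-7g-5p: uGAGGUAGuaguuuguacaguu
let-7i-5p: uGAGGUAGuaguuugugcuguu
miR-98-5p: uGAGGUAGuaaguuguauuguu
These and the other sequences printed here are those of the deposited files, and for 326 of the 350 tested miRNAs RefSeq (rat GRCr8) holds an entry, identical in all 326. Among 45 pairs of tested miRNAs that differ by at most 2 edits, 19 pairs had counts, summed over the 21 brain libraries, within 10% of each other and a Pearson r over 0.99, so their reads may have been counted for both. They comprise 38 miRNAs, of which 4 were called higher and 10 lower, and their separate values are uncertain. A sum or share that holds both members of a pair, among them the let-7 share above, may count their reads more than once. Such a pair is let-7a-5p and let-7c-5p, and others named below are miR-29a-3p with miR-29c-3p, miR-19a-3p with miR-19b-3p, miR-7a-5p with miR-7b (named after its values were seen), let-7c-2-3p with let-7f-2-3p, and miR-344b-3p with miR-344b-1-3p.

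**Figure D1:**
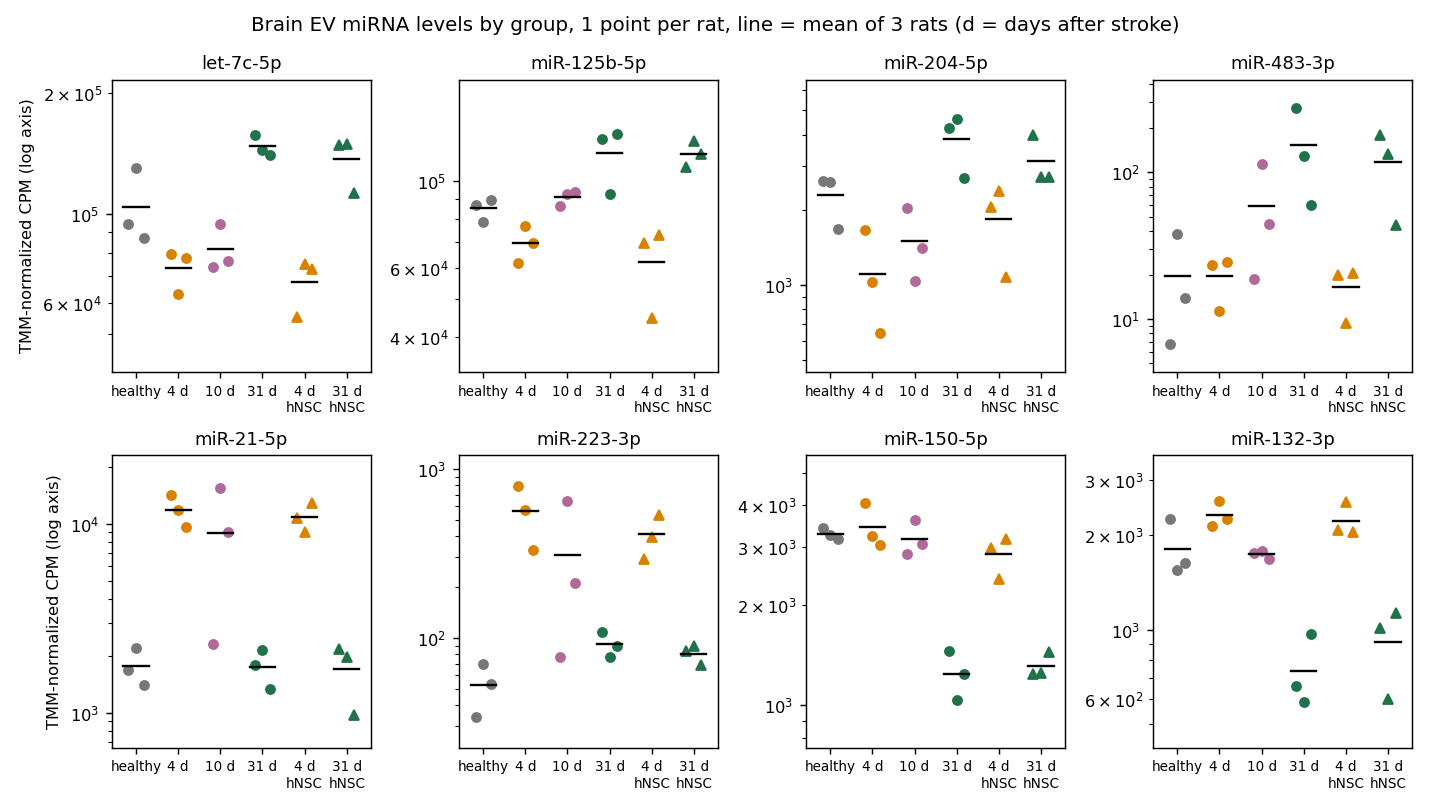
Levels of 8 miRNAs in brain EVs, in TMM-normalized CPM on a log axis, with 1 point per rat and a line at the mean of 3 rats, for healthy rats, control rats at 4, 10 and 31 days (circles) and hNSC rats at 4 and 31 days (triangles). On this scale every control rat at 31 days was above every control rat at 4 days for let-7c-5p, miR-125b-5p, miR-204-5p and miR-483-3p. Every control rat at 31 days was below every control rat at 4 days for miR-21-5p, miR-223-3p, miR-150-5p and miR-132-3p. However, let-7c-5p and miR-125b-5p were not called on library-total TPM, and miR-125b-5p turned to −0.06 with predicted miRNAs in the normalization.

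Among the 10 most abundant miRNAs, the 5 let-7 members and miR-125b-5p rose. MiR-125b-5p, the vertebrate relative of the developmental regulator lin-4, stood at 61686, 76809 and 69366 CPM at 4 days and 128350, 92975 and 132339 CPM at 31 days. Every late library was above every early one (log2 fold change 0.77, standard error 0.16, adjusted p = 0.00107), but on library-total TPM the change was 0.27 and not called, and with predicted miRNAs kept it was −0.06. The other 4 were not called: miR-9a-5p had a log2 fold change of −0.09 (standard error 0.19), miR-30a-5p −0.23 (0.18), miR-29c-3p 0.08 (0.19) and miR-29a-3p 0.10 (0.19). Of the other settings, 3 called miR-30a-5p lower (lowest value −1.02) and 2 called miR-9a-5p lower (lowest −0.92). A further abundant miRNA, miR-7a-5p, which is enriched in neurons and neuroendocrine cells, was chosen after its values were seen. It stood at 8019.6, 12701 and 10714 CPM at 4 days and 28152, 38799 and 17402 CPM at 31 days, a fold change of 2.68 (log2 1.42, standard error 0.34, adjusted p = 0.00214). The late libraries were again all above the early ones, but with predicted miRNAs kept it was not called (0.68).

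Immune cell miRNAs were among those that fell most. Of 17 miRNAs of microglia and leukocytes, 9 were tested, 5 fell (55.6%, against 12.9% of all tested miRNAs) and 0 rose, with a median log2 fold change of −0.79 against 0.04 for all. The levels of the 17 added up to 24413, 21061 and 18267 CPM at 4 days and 8312, 9861 and 6350.5 CPM at 31 days, against 9759 ± 991 CPM (SD, n = 3) in healthy rats. MiR-21-5p, which many cells induce in injury and inflammation and which is not particular to immune cells, was the most abundant of them. It stood at 14131, 11893 and 9579.7 CPM at 4 days and at 1781, 2158 and 1336 CPM at 31 days. It was thus 6.74-fold lower at 31 days (log2 fold change −2.75, standard error 0.49, adjusted p = 0.000242), and the level in healthy rats was 1763 ± 405 CPM (SD, n = 3). At 10 days the level was 8915 ± 6561 CPM (SD, n = 3), with a wide spread. MiR-223-3p, a miRNA of neutrophils and other myeloid cells, was 789, 567 and 332 CPM at 4 days and 109, 77.2 and 89.5 CPM at 31 days. It fell 6.14-fold (log2 −2.62, standard error 0.55, adjusted p = 0.00088), with every late library still above the 3 healthy ones (34.1, 70.03 and 53.7 CPM).

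MiR-142-5p, made in cells of the blood lineage, was 256, 291 and 326 CPM at 4 days and 68.9, 86.8 and 47.0 CPM at 31 days (log2 fold change −2.08, adjusted p = 0.00131). MiR-150-5p, abundant in mature lymphocytes, had the smallest p of all tested miRNAs, with 4049, 3236 and 3033 CPM at 4 days and 1454, 1038 and 1245 CPM at 31 days (log2 fold change −1.47, standard error 0.17, adjusted p = 1.06e-05). Unlike miR-21-5p and miR-223-3p, miR-150-5p in healthy rats (3268 ± 123 CPM, SD, n = 3) lay between the lowest and highest early library. MiR-342-3p, found in immune cells and also in neural tissue, was 2195 ± 139 CPM at 4 days, 1267 ± 77.1 CPM at 31 days and 2927 ± 475 CPM in healthy rats (SD, n = 3 each, log2 fold change −0.79, adjusted p = 0.00165). The remaining 4 were not called. MiR-146a-5p, an NF-κB-induced brake on inflammatory signaling, was 951, 883 and 854 CPM at 4 days and 2274, 3462 and 1301 CPM at 31 days, with no overlap but an adjusted p of 0.068 (log2 fold change 1.39). It was called higher with no filter on low counts, with only the groups compared, at an unadjusted p with the fold threshold, and without replicate 3 of 31 days (1.63). MiR-146b-5p (−0.47, adjusted p = 0.0471) did not reach 1.5-fold, and miR-142-3p (−0.52, −1.12 without replicate 2 of 31 days, adjusted p = 0.402) and miR-155-5p (−0.55, adjusted p = 0.513) did not pass the test. Of the other settings, 4 called miR-146b-5p lower (lowest value −1.26) and 1 called miR-142-3p lower (lowest −1.23). The share of these miRNAs that came from cells other than immune cells was not tested.
miR-21-5p: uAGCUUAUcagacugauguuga
miR-223-3p: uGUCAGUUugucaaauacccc
miR-142-5p: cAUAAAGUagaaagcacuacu
These 3 sequences, with seeds in capitals, are shown because they carried the largest falls of the immune list, and they share no seed.

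Of 8 oligodendrocyte miRNAs on the list, 4 were tested and 3 fell (75%, against 12.9% of all tested miRNAs), with a median log2 fold change of −0.86 against 0.04 for all, and the list added up to 10590.4, 8093 and 10439.5 CPM at 4 days and 6257, 7140.3 and 6950.4 CPM at 31 days. In healthy rats the sum was 7522 ± 682 CPM (SD, n = 3), and miR-219b had 0 UMIs in the 6 libraries. MiR-338-3p, the most abundant, which promotes oligodendrocyte differentiation together with miR-219a-5p, was 5179, 4369 and 5644 CPM at 4 days and 2916, 3017 and 3427 CPM at 31 days (log2 fold change −0.70, standard error 0.24, adjusted p = 0.0319). MiR-219a-5p was 2607, 1521 and 2314 CPM and 889, 1399 and 882 CPM (log2 fold change −1.02, standard error 0.29, adjusted p = 0.0104). The groups did not overlap for either, but replicate 2 of the early group and replicate 2 of the late group came close for miR-219a-5p. MiR-3065-5p, processed from the strand opposite to miR-338, had 35 UMIs over the early group (17.1, 12.4 and 17.2 CPM) and 0 over the late group, so it was at least 9.38-fold lower against a floor of 3 counts over the group (adjusted p = 0.000342). The list median is the same with this miRNA at its bound. Without replicate 1 of 31 days only miR-3065-5p remained called (miR-219a-5p −0.88, miR-338-3p −0.65). MiR-338-3p was also not called without replicate 3 of 4 days (−0.64) or replicate 2 of 31 days (−0.76), or with the trend on GC content taken out (−0.55). The fourth tested member, miR-219a-2-3p, was not called.

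Of 26 neuron-enriched miRNAs, 24 were tested, 4 fell (16.7%, against 12.9% of all tested miRNAs) and 0 rose. Their median log2 fold change was −0.31 against 0.04 for all, and 19 of the 24 values were negative. MiR-129-1-3p and miR-129-2-3p had the same level in each of the 6 libraries, such as 1169, 980 and 733 CPM at 4 days. They differ by more than 2 edits and so are not among the pairs above. Thus 1 measurement may be counted for both, here and in the sum of the list. The clearest falls were those of miR-132-3p and miR-212-3p, which are made from a single transcript that neuronal activity and CREB induce and which share a seed. MiR-132-3p stood at 2147, 2572 and 2254 CPM at 4 days and 659.8, 587 and 971 CPM at 31 days, 3.15-fold lower and without overlap (log2 fold change −1.65, standard error 0.25, adjusted p = 9.91e-05). MiR-212-3p went from 260.4, 358 and 309 CPM to 75.8, 98.9 and 157 CPM (log2 fold change −1.50, standard error 0.35, adjusted p = 0.00183). In healthy rats miR-132-3p was 1814 ± 385 CPM and miR-212-3p 209 ± 68.7 CPM (SD, n = 3 each).
miR-132-3p: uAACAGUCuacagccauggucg
miR-212-3p: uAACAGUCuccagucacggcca
Their shared seed is in capitals, and the pair differs by more than 2 edits. Also called were miR-153-3p, which targets synaptic and synuclein transcripts (log2 fold change −1.11, adjusted p = 0.0332), and miR-9a-3p, from a hairpin of neural progenitors and neurons (−0.74, adjusted p = 0.0255). Both calls were lost without replicate 3 of 4 days (−1.04 and −0.61), without replicate 1 of 31 days (−1.12 and −0.75) and without replicate 2 of 31 days (−1.21 and −0.76), which leaves 2 of the list. MiR-9a-3p was also not called with the GC trend taken out (−0.45). MiR-153-3p was also lost without replicate 2 of 4 days (−1.09) and replicate 3 of 31 days (−1.15). The neuronal miR-124-3p (−0.11, standard error 0.23, adjusted p = 0.747) and miR-128-3p (−0.27, standard error 0.20, adjusted p = 0.337) were not called, but 2 of the other settings called miR-128-3p lower (lowest value −1.11). On library-total TPM, where the median of all miRNAs was −0.44, the list median was −0.79 and 13 of the 24 were called lower (54.2%, against 30.6% of all tested).

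The choroid plexus, an epithelium that makes the cerebrospinal fluid, expresses miR-204 and, from the serotonin receptor gene Htr2c, a group of miRNAs. Of 10 on the list, 6 were tested, 4 rose (66.7%, against 16% of all tested miRNAs) and 0 fell on the TMM scale, with a median log2 fold change of 1.27 against 0.04 for all, whereas miR-448-3p turned negative with predicted miRNAs kept. The list added up to 3191, 1912 and 1161 CPM at 4 days and 6856, 8056 and 4224 CPM at 31 days, and to 3792 ± 766 CPM (SD, n = 3) in healthy rats. MiR-204-5p, its most abundant member, which the retina and other tissues also express, stood at 1662, 1027 and 644 CPM at 4 days and 4245, 4618 and 2686 CPM at 31 days. All late libraries were above all early ones, 3.47-fold in the fit (log2 1.79, standard error 0.34, adjusted p = 0.000385). MiR-211-5p, which shares its seed, went from 882, 621 and 376 CPM to 1523, 2006 and 1039 CPM (log2 fold change 1.28, standard error 0.32, adjusted p = 0.0033).
miR-204-5p: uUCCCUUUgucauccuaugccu
miR-211-5p: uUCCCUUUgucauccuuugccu
The pair differs by 1 edit, and their summed counts differ by a ratio of 2.13, so reads were told apart at least in part. From the Htr2c gene, miR-1298 was 485, 169.8 and 66.0 CPM at 4 days and 898, 1211 and 389 CPM at 31 days, with overlap between replicate 1 of 4 days and replicate 3 of 31 days (1.80, adjusted p = 0.0155), and miR-764-3p was 3.12, 11.3 and 15.8 and 25.8, 27.7 and 20.1 CPM (1.26, adjusted p = 0.0431). Both were lost without replicate 2 of 4 days (1.67 for miR-1298 and 1.35 for miR-764-3p) or replicate 2 of 31 days (1.38 and 1.06), which leaves 2 of the list. MiR-1298 was also lost without replicate 3 of 4 days (1.39) and stood at 2.75 without replicate 1 of 4 days, and miR-764-3p without replicate 1 of 4 days (0.81) and replicates 1 and 3 of 31 days (1.24 and 1.32). MiR-764-3p was further not called in DESeq2, in limma on TPM, with no filter on low counts, with only the groups compared, with the GC trend taken out or with predicted miRNAs kept, and miR-1298 was not called in the last of these. MiR-204-3p (0.83, adjusted p = 0.162) and miR-448-3p (0.57, adjusted p = 0.287) were not called. On library-total TPM 2 members were called higher, miR-204-5p and miR-1298 but not miR-211-5p, and all 6 values were positive. With predicted miRNAs kept 0 were called and miR-448-3p was −0.17. How much of the change reflects the amount of choroid plexus in the tissue taken was not tested.

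Of 6 miRNAs of motile cilia, which ependymal cells carry, 5 were tested and 0 called, with a median of 0.69, and the most abundant, miR-34c-5p, had a log2 fold change of 0.78 (adjusted p = 0.0626). It was called higher at an unadjusted p with the fold threshold, with a replicate block, and without replicate 1 of 4 days (0.99) or replicate 3 of 31 days (0.96). The 6 on the list added up to 697, 417 and 456 CPM at 4 days and 992, 1052 and 519 CPM at 31 days. All 6 endothelial and mural miRNAs were tested, with a median of 0.17, and 1 fell (16.7%, against 12.9% of all tested miRNAs). Of them, miR-126a-5p, the minor arm of an endothelial hairpin, fell from 2441, 1993 and 2329.6 CPM to 1025, 997 and 927 CPM (log2 fold change −1.20, adjusted p = 0.000117), while the major arm miR-126a-3p, the most abundant of the list, was not called. Of 4 mesenchymal miRNAs 2 were tested and 0 called, and the sum over the 4 was 1484, 1212 and 775 CPM at 4 days and 1302, 1294 and 479 CPM at 31 days. Of 7 epithelial miRNAs 2 were tested and 1 rose (50%, against 16% of all tested miRNAs). This was miR-205, at 17.1, 22.6 and 28.7 CPM and 55.1, 56.7 and 38.1 CPM (1.13, adjusted p = 0.0355). Its call was lost when replicate 1, 2 or 3 of 4 days (0.90, 1.13, 1.29) or replicate 1 or 2 of 31 days (1.08, 0.94) was left out. It was also not called in DESeq2, in limma on TPM, with no filter on low counts, with the GC trend taken out or with predicted miRNAs kept. Without replicate 3 of 31 days miR-205 (1.23) and miR-200a-3p were called higher, the latter named after its values were seen and not tested with all libraries.

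**Figure D2:**
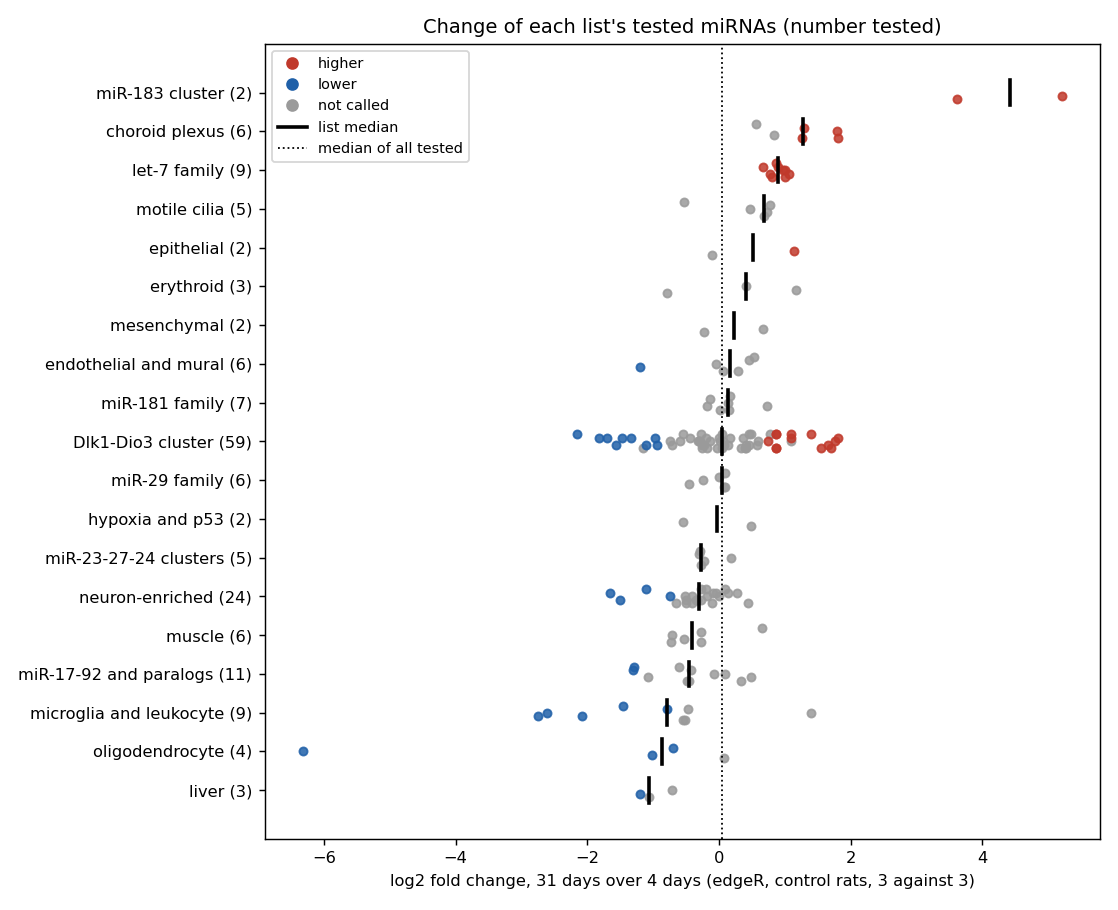
Log2 fold change (31 over 4 days, control rats, TMM scale) of the tested miRNAs of the 19 lists, ordered by list median, with higher calls in red, lower calls in blue and others in gray; the thick line is the list median and the dotted line the median of all 350 tested miRNAs, 0.04. The 9 let-7 members and 4 choroid plexus miRNAs lie to the right (on library-total TPM 0 and 2 of them were called) and 5 immune and 3 oligodendrocyte miRNAs to the left, where the fitted value of miR-3065-5p near the left edge rests on 0 counts at 31 days.

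The imprinted Dlk1-Dio3 region codes for a large miRNA cluster that is expressed in neurons and transcribed from the maternal chromosome. Of 82 cluster miRNAs 59 were tested. Of these 13 rose (22.0%, against 16% of all tested miRNAs) and 9 fell (15.3%, against 12.9%), with a median of 0.05 against 0.04 for all. The sum over the cluster was 23529, 26788 and 26356 CPM at 4 days and 29964, 25730.5 and 36589.7 CPM at 31 days, with overlap between the times. Among those that rose, miR-370-3p went from 76.4, 98.8 and 89.0 CPM to 299.7, 247 and 320.1 CPM (log2 fold change 1.71, adjusted p = 0.000174). MiR-154-5p went from 360.1, 364 and 334 CPM to 922, 909 and 1271 CPM (1.55, adjusted p = 0.000182), and miR-770-3p from 48.3, 77.2 and 97.6 CPM to 276, 223 and 264 CPM (1.76, adjusted p = 0.000256). These groups were apart in every library. The abundant miR-127-3p (0.86, adjusted p = 0.00205) and miR-382-5p (1.09, adjusted p = 0.000339) rose as well, but miR-127-3p was not called in limma on TPM (lowest value in any setting 0.03). Among those that fell, miR-136-3p went from 1542, 1618 and 1915 CPM to 394, 376 and 660.3 CPM (log2 fold change −1.83, standard error 0.28, adjusted p = 0.000103), and its partner miR-136-5p from 153, 210.0 and 271 CPM to 36.2, 43.4 and 64.9 CPM (−2.15, adjusted p = 0.000574). The related miR-376a-3p (−1.56) and miR-376b-3p (−1.70), miR-539-3p (−1.33) and miR-323-3p (−0.95) fell too, with adjusted p between 0.000283 and 0.00166. On library-total TPM the cluster had 7 higher (11.9%, against 6.86% of all tested miRNAs) and 16 lower (27.1%, against 30.6%). With predicted miRNAs kept it had 2 higher (3.39%, against 2.57%) and 18 lower (30.5%, against 24.6%). With each library left out, 9 to 11 of the cluster rose (15.3% to 18.6%, against 11.4% to 15.4% of all tested miRNAs). In these fits 7 to 11 fell (11.9% to 18.6%, against 10.6% to 13.1%). Without replicate 1 of 4 days or replicate 3 of 31 days, 9 rose and 11 fell. The higher calls of miR-134-5p, miR-485-5p and miR-541-5p were lost whichever of the 6 libraries was left out.

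The largest fitted rise, that of miR-183-5p, depended in its size on a single rat. The miR-183 cluster is expressed in sensory cells, including those of the retina and inner ear. Its level was 1.56, 3.09 and 10.0 CPM at 4 days and 509.9, 25.3 and 22.4 CPM at 31 days, so replicate 1 of the late group was far above the other 2, which were still above all early libraries. The log2 fold change was 5.22 (standard error 1.00, adjusted p = 0.000385) and 2.29 without that library, where it was still called, and 6.01 without replicate 3 of 4 days. MiR-182, from the same cluster, was 6.24, 8.23 and 18.7 CPM and 367, 20.5 and 20.1 CPM, and its log2 fold change of 3.61 (adjusted p = 0.00139) became 0.89 without that library and was no longer called. DESeq2 and limma on log2(TPM + 0.1) did not call miR-182 either. Of the 3 cluster miRNAs on the list, 2 were tested and 2 rose (100%, against 16% of all tested miRNAs).

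Both arms of the miR-483 hairpin, which lies within the growth factor gene Igf2, rose. MiR-483-3p went from 23.4, 11.3 and 24.4 CPM to 274, 130.3 and 60.4 CPM, 8.01-fold higher in the fit (log2 3.00, standard error 0.67, adjusted p = 0.00139). MiR-483-5p went from 56.1, 28.8 and 40.2 CPM to 348, 175 and 96.3 CPM (2.33, adjusted p = 0.021). Replicate 1 of 31 days was the highest for both arms. Without it miR-483-3p was still called (2.36), but with predicted miRNAs kept it was not, and miR-483-5p was not called without it (1.77) or without replicate 2 or 3 of 4 days (2.10, 2.27), nor in limma on TPM or with predicted miRNAs kept. Igf2 is expressed in choroid plexus and meninges of the adult brain.

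The other largest rises were in miRNAs of low to moderate level. The arm let-7i-3p, opposite to let-7i-5p in its hairpin, stood at 10.9, 13.4 and 15.8 CPM at 4 days and 93.0, 89.3 and 91.8 CPM at 31 days, the tightest of these groups (log2 fold change 2.75, standard error 0.44, adjusted p = 0.000108). MiR-296-5p went from 12.5, 14.4 and 18.7 CPM to 122, 89.3 and 56.0 CPM (2.55, adjusted p = 0.00115), and miR-375-3p, known from neuroendocrine cells, from 18.7, 16.5 and 12.9 CPM to 81.0, 76.0 and 44.8 CPM (2.07, adjusted p = 0.000108). In all of these every late rat was above every early rat, which was a condition of their choice. MiR-1843b-3p (1.81, adjusted p = 0.000108), miR-770-5p (1.81, adjusted p = 0.00194) and miR-190b-5p (1.82, adjusted p = 0.00238) completed the 12 named, the last not called without replicate 2 of 31 days (1.12). MiR-653-5p had 3 UMIs over the early group and 32 over the late group, a ratio of 13.3 with a 95% counting interval of 4.15 to 67.7. Its fitted log2 fold change was 2.81 without replicate 2 and 4.35 without replicate 1 of 4 days.

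Among the largest falls, the near-identical miR-344b-3p and miR-344b-1-3p went from 31.2, 41.2 and 35.9 CPM to 5.17, 2.41 and 6.72 CPM and from 29.6, 38.1 and 31.6 CPM to 5.17, 2.41 and 6.72 CPM (log2 fold change −2.99 and −2.86, adjusted p = 0.000117 and 0.000158). They count as 1 observation. MiR-7a-1-3p, the arm opposite to miR-7a-5p, fell from 17.1, 39.1 and 43.1 CPM to 3.45, 9.65 and 11.2 CPM (−2.03, adjusted p = 0.00139), whereas miR-7a-5p rose. MiR-3068-3p, at 14.0, 9.26 and 11.5 CPM and 0, 2.41 and 4.48 CPM, was called (−2.30, adjusted p = 0.0319) but not without replicate 1 or 3 of 4 days (−2.21, −2.31) or replicate 1 or 2 of 31 days (−1.77, −2.50), and it stood at −2.91 without replicate 3 of 31 days.

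A hairpin can yield a miRNA from each of its arms, the 5p and the 3p arm, and 86 hairpins had both arms tested. Both arms rose on the TMM scale in 4 of them (let-7i, miR-483, miR-770 and let-7d, whose 5p arm turned negative with predicted miRNAs kept), both fell in 1 (miR-136), and the arms went opposite ways in 3 (miR-369, miR-708 and miR-872). The 86 are pairs whose names differ in the arm alone. Names with a locus number on 1 arm were not paired, among them miR-7a-1-3p, let-7c-2-3p and let-7f-2-3p, which fell while miR-7a-5p, let-7c-5p and let-7f-5p rose on the TMM scale (these let-7 3p arms were named after their values were seen, and as a near-identical pair they count as 1 observation). In 32 hairpins 1 arm was called and in 46 none. For miR-369, the 5p arm went from 553, 765 and 764 CPM to 2014, 1405 and 2059 CPM (log2 fold change 1.39, adjusted p = 9.51e-05) and the 3p arm from 218, 247 and 347 CPM to 87.9, 79.6 and 128 CPM (−1.47, adjusted p = 0.000182). For miR-708, the 5p arm went from 104, 113 and 146 CPM to 372, 285 and 320.1 CPM (1.42, adjusted p = 5.97e-05) and the 3p arm from 42.1, 43.2 and 51.7 CPM to 15.5, 10.9 and 15.7 CPM (−1.72, adjusted p = 0.00246). In both hairpins no early library overlapped a late one on either arm, but with predicted miRNAs kept neither 5p arm was called. For miR-872, the 3p arm fell from 62.4, 39.1 and 54.5 CPM to 18.9, 20.5 and 4.48 CPM (−1.72, adjusted p = 0.00213), while the 5p arm was called higher (0.86, adjusted p = 0.0435) only with all 6 libraries, with values between 0.70 and 0.92 when each was left out, and was not called in DESeq2, with DESeq2 size factors in edgeR, in limma on TPM, with no filter on low counts or with predicted miRNAs kept. The 5p arms of miR-708 and miR-872 and miR-7b were named after their values were seen. The difference between arms was not tested as such.
miR-369-5p: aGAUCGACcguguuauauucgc
miR-369-3p: aAUAAUACaugguugaucuuu
miR-708-5p: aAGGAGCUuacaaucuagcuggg
miR-708-3p: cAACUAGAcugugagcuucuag
The arms of a hairpin have different seeds (capitals), and so different targets.

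By seed, the 350 tested miRNAs fell into 279 groups, 14 of them with at least 3 members. The let-7 seed was the only 1 of these 14 whose tested members were all called in 1 direction, on the TMM scale, and 9 of the 14 had no called member. Among the latter was the seed shared by miR-29a-3p, miR-29b-3p and miR-29c-3p. By list, the miR-29 family with both arms had 6 of 6 tested and 0 called (median 0.04). The miR-181 family (7 of 10 tested, median 0.13) and the miR-23, miR-27 and miR-24 clusters (5 of 10 tested, median −0.27) also had 0 calls. Of 22 miRNAs of miR-17-92 and its paralogs, which promote proliferation, 11 were tested and 2 fell (18.2%, against 12.9% of all tested miRNAs), the near-identical miR-19a-3p (−1.31, adjusted p = 0.0274) and miR-19b-3p (−1.29, adjusted p = 0.0293). Neither was called without replicate 1 or 3 of 4 days (−1.12, −1.35 for miR-19a-3p) or replicate 1 or 3 of 31 days (−1.09, −1.13), and without replicate 2 of 31 days they stood at −1.90 and −1.89. On library-total TPM 5 of the 11 were called lower, against 30.6% of all tested miRNAs. Of the hypoxia and p53 list 2 of 4 were tested and 0 called, among them the p53 target miR-34a-5p, at 2878, 3119.7 and 2944 CPM and 1766, 2069.7 and 2263 CPM (−0.55, adjusted p = 0.163). Its libraries did not overlap, and 3 of the other settings called it lower (lowest value −1.36). For cells outside the brain, the erythroid list (3 of 5 tested) and the muscle list (6 of 9 tested, median −0.40) had 0 calls. In the liver list (3 of 5 tested) 1 was called lower (33.3%, against 12.9% of all tested miRNAs). This was miR-192-5p (−1.20, adjusted p = 0.0164), which was not called without replicate 2 of 31 days (−1.07). Without replicate 1 of 31 days 2 liver miRNAs were called lower, miR-192-5p (−1.53) and miR-194-5p (−1.12), the latter named after its values were seen. The same 2 were called lower at an unadjusted p with the fold threshold, in limma on TPM, with no filter on low counts and with predicted miRNAs kept. MiR-24-3p (0.18, adjusted p = 0.562), miR-542-3p (−0.13, adjusted p = 0.819) and miR-144-5p (1.17, 0.32 without replicate 2 of 31 days, adjusted p = 0.135), which the study compared between brain and plasma, were not called.

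The same interval was compared in the rats given hNSCs, which share no sample with the control rats. There 35 of the 350 miRNAs were higher (10%) and 36 lower (10.3%) at 31 days. Of the higher calls 31 were common to both, 55.4% of those in control rats and 88.6% of those in hNSC rats, and of the lower calls 28 were common, 62.2% and 77.8%. No miRNA was called in opposite directions, and 55 of the 56 and all 45 of the 45 control calls had the same sign in hNSC rats. Across miRNAs, which are not independent, the log2 fold changes of both comparisons correlated with Pearson r 0.837 and Spearman rho 0.842 (n = 350). The 9 let-7 members rose again on the TMM scale (median 1.02). MiR-21-5p was 10906 ± 1941 CPM at 4 days and 1709 ± 641 CPM at 31 days (SD, n = 3 each, log2 fold change −2.67, adjusted p = 0.000358). MiR-223-3p (−2.33, adjusted p = 0.00319), miR-150-5p (−1.12, adjusted p = 0.000118), miR-132-3p (−1.28, adjusted p = 0.000549) and both miR-369 arms moved as in control rats. Of the choroid plexus list 0 were called there, with a median of 0.49, and miR-204-5p was 1835 ± 678 CPM at 4 days and 3138 ± 743 CPM at 31 days (SD, n = 3 each, log2 fold change 0.78, adjusted p = 0.0953).

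Whether the change over time differed between control and hNSC rats was tested as an interaction in edgeR. At an adjusted p under 0.05, 0 of 350 miRNAs differed (0%), with 9 at an unadjusted p under 0.05, and DESeq2 also gave 0. The smallest adjusted p was that of miR-653-5p (0.186, difference −3.96 in log2), which has few counts. For miR-204-5p the difference was −1.02 (adjusted p = 1), and for miR-7a-5p it was −1.01 (adjusted p = 1), although its log2 fold change was 0.41 in hNSC rats (adjusted p = 0.375). Calls in 1 of the groups and not in the other are thus not shown to differ. With 3 rats per group a p that misses the threshold does not show that the changes were alike.

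**Figure D3:**
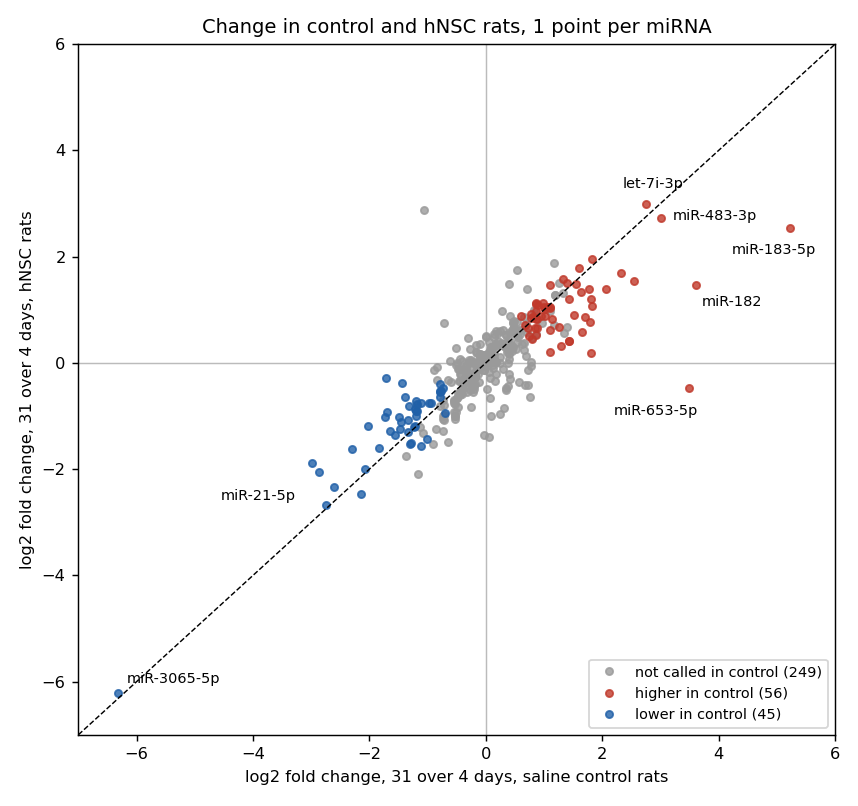
Log2 fold change from 4 to 31 days in saline control rats (horizontal) and in hNSC rats (vertical) for the 350 tested miRNAs, TMM scale, with 1 point per miRNA colored by its call in control rats and a dashed line of equal change. The 56 red and 45 blue points lie on the same side of 0 on both axes with the exception of miR-653-5p, and the position of miR-3065-5p rests on 0 counts in both late groups.

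In plasma EVs of the control rats the same interval gave 0 higher (0%) and 0 lower (0%) of 309 tested miRNAs in edgeR, with 24 at an unadjusted p under 0.05, and DESeq2 called 0 higher and 2 lower (miR-9a-3p and miR-27a-5p, the latter named after its values were seen). The smallest adjusted p was 0.0638, for miR-9a-3p (−3.90). There let-7c-5p had a log2 fold change of 0.03 (adjusted p = 0.986), miR-21-5p of −0.89 (adjusted p = 0.632) and miR-223-3p of −1.11 (adjusted p = 0.58). The let-7 share of known UMIs had an SD of 8.76 and 8.94 points in plasma at 4 and 31 days (n = 3 each). In brain control rats it was 2.16 and 2.58 points. With 3 rats per group, 0 calls do not show that plasma miRNAs were unchanged. Brain and plasma were fitted separately, and the difference between them was not tested.

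By median, the GC share was lower for the miRNAs that fell than for the others. The ranges overlapped, from 23.8% to 70.6% for those that rose and from 23.8% to 66.7% for those that fell. This difference in base composition was not tested. The median GC share of the mature sequence was 47.9% for the 56 miRNAs that rose, 40.9% for the 45 that fell and 47.8% for the rest, and across the 350 miRNAs, which are not independent, GC share and log2 fold change correlated with Pearson r 0.183. When a trend on GC share was taken out of each library, an alternative added after the data were seen, 56 miRNAs were higher and 46 lower, of which 49 and 42 were among the original calls, and r was 0.029. The let-7 family, with a GC share between 31.8% and 45.5%, had a median change of 1.07 in that fit.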

How the data were processed

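Small RNA of extracellular vesicles (EVs) from brain tissue and blood was sequenced with unique molecular identifiers (UMIs), and 21 brain and 21 plasma libraries were used. The labels speak of plasma in the sample names and of serum in the extraction text. The authors deposited UMI counts per miRNA and TPM values, which were checked to be the count over the library total with no correction for length. The upstream genome was Rnor_6.0 per the labels. Groups were taken from the sample labels, 7 per tissue with 3 rats each. Known rat miRNAs were tested, and predicted ones were left out because they have no established name.

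Counts were analyzed in edgeR 4.0.16 (R 4.3.3) with TMM normalization, filterByExpr by group and quasi-likelihood tests, in 1 model per tissue, with Benjamini-Hochberg adjustment over all tested known miRNAs. Calls required an adjusted p under 0.05 together with more than a 1.5-fold difference. The interaction was called on adjusted p alone. Python 3.11.15 served for tables (pandas 2.3.3, numpy 2.4.6), intervals (scipy 1.17.1) and plots (matplotlib 3.10.9), and the scripts were tested on simulated data.

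Other settings tried were DESeq2 1.42.0, a trended limma 3.58.1 fit on log2(TPM + 1) and log2(TPM + 0.1), no filter on low counts, DESeq2 size factors in edgeR, only the groups compared, a replicate block, erythroid miRNAs left out, predicted miRNAs kept, other thresholds, and each library left out in turn. A GC trend taken out of each library was chosen after seeing the data. Where a library was left out, the spread was estimated over all groups of the model.

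Named miRNAs were the 12 called miRNAs with the largest change in each direction whose groups did not overlap, the 10 most abundant, members of the 19 lists of cell types, clusters and families, and 9 of the miRNAs that the text of the study names, not all of them. MiR-7a-5p, miR-7b, miR-708-5p, miR-872-5p and others marked in the text were chosen after their values were seen. Members and lists were chosen with earlier results of these data known. Long RNA libraries were left out because the comparison is of miRNAs.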

Additional observations from a re-analysis of the deposited data

How the results depend on the processing

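In control rats 56 miRNAs were higher and 45 lower. The counts stayed within 1.5 times of these with DESeq2 (50 and 46), DESeq2 size factors in edgeR (52 and 48), no filter on low counts (49 and 58), only the groups compared (62 and 48), erythroid miRNAs left out (57 and 46), the GC trend taken out (56 and 46), either other threshold, and each library left out (40 to 56 higher, 37 to 46 lower). They moved with limma on log2(TPM + 1) to 24 and 107, on log2(TPM + 0.1) to 23 and 105, and with predicted miRNAs kept, where predicted miRNAs are also counted, to 109 and 140. In hNSC rats the counts of 35 and 36 became 12 and 102, 12 and 97, and 59 and 176 in these 3 settings, and 61 and 57 at an unadjusted p with the fold threshold. The limma settings change the test and the scaling together. TPM divides by the library total, which shifts all values of a library alike, and why the totals and TMM differ was not tested.

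With a replicate block, the control counts were 55 and 47. Within groups, brain control libraries of the same replicate number at both times correlated with r 0.00884, −0.0880 and 0.131, and each rat was sampled at a single time, so numbers were not treated as pairs.

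The interaction count of 0 became 9 at an unadjusted p and 2 without the filter on low counts (miR-122-5p and miR-653-5p). Leaving out each library gave 0 to 1, with miR-653-5p called without hNSC day 4 replicate 3. In plasma the counts of 0 became 13 higher and 11 lower at an unadjusted p. DESeq2 gave 2 lower (miR-9a-3p and miR-27a-5p), and no filter and erythroid miRNAs left out gave 1 each (miR-9a-3p). Leaving out each plasma library gave 0 to 2 lower, with miR-9a-3p and miR-27a-5p called without control day 4 replicate 3. The cause of these changes was not tested.

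Of the 91 miRNAs followed under the alternatives, 73 were called, of which 70 kept their sign in every setting and 29 also their call. Of the 18 not called, 6 changed sign. With limma on either pseudocount miR-29c-3p was −0.41, miR-29a-3p −0.40 and miR-24-3p −0.31, and with predicted miRNAs kept they were −0.76, −0.75 and −0.60. In the latter setting let-7d-5p was −0.090, miR-134-5p −0.061, miR-125b-5p −0.056 and miR-448-3p −0.17. Without the filter on low counts miR-29c-3p was −0.084 and miR-29a-3p −0.073. With the GC trend taken out miR-542-3p was 0.12 and miR-9a-5p 0.15. With each library left out, miR-29c-3p ranged from −0.18 to 0.23, miR-29a-3p from −0.17 to 0.25 and miR-542-3p from −0.40 to 0.10. The cause was not tested. Depth limits miRNAs with few UMIs, such as miR-653-5p and miR-3065-5p, whose fitted values are no bounds.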
